A study of Mus musculus with 14 samples.

Results

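The urea cycle genes followed here were Cps1, Otc, Ass1, Asl, Nags, Gls2, Slc25a15, Slc25a13 and Glud1, which were chosen by name. A probe was taken as a member's when the RefSeq accession given for it on the array belonged to that gene. This found 12 of the 39429 probes and all 9 genes, among 19751 genes that could be named in the same way. Otc, Ass1 and Glud1 each had 2 probes, and the probe with the highest mean signal stood for each gene.

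RNA was measured in whole liver of CD-1 mice, an outbred stock, in 6 groups that differed by sex and age: males and females at 3 wk (M3, F3), at 4 wk (M4, F4) and at 8 wk (M8, F8). No treatment or engineered allele is named for any of these groups. Each array was hybridized with a pool of RNA from 5 mice at 3 wk or 6 mice at 4 and 8 wk for each of both groups, and each of 7 comparisons had 2 arrays with separate pools and exchanged dyes. Males were set against females at each age (M3/F3, M4/F4 and M8/F8), which asks how liver expression differs by sex before puberty (3 and 4 wk) and in young adults (8 wk). Within each sex, 8 wk was set against 3 wk (M8/M3, F8/F3) and against 4 wk (M8/M4, F8/F4), which asks how it changes with age. Ratios are given as log2 of male over female or of 8 wk over the younger age, and n is 2 arrays throughout. A pool hides the spread between its animals, so the tests measure the spread between pools and arrays. In whole liver, fewer cells of a type and less RNA per cell cannot be told apart.

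The liver is the main site of urea synthesis, which turns toxic ammonia from amino acid breakdown into a harmless form that the kidney excretes. The cycle starts in the mitochondrion with carbamoyl phosphate synthetase (Cps1), which needs the activator made by Nags, and ornithine transcarbamylase (Otc). It continues in the cytosol with argininosuccinate synthetase (Ass1) and argininosuccinate lyase (Asl), is bridged by the ornithine carrier Slc25a15 and the aspartate-glutamate carrier Slc25a13, and draws ammonia from the glutaminase Gls2 and the glutamate dehydrogenase Glud1. In the liver lobule Cps1, Otc, Ass1 and Asl are known to be most abundant around the portal vein, whereas glutamine synthetase marks the cells around the central vein.

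The arrays gave a usable signal for every one of these genes. All 9 were marked by the scanner software as well above the local background in 28 of 28 channels, and none was saturated on the scale used. Over all spots 55.2% to 77.2% met that condition in a channel (median 66.5%). For Cps1, Otc, Ass1, Gls2, Slc25a13 and Glud1 all 28 channels were flagged as scaled up from a scan at low detector gain. For Asl 26 of 28 channels were so flagged, and for Nags and Slc25a15 none was. The group labels were checked with sex-linked genes. Xist, the transcript of the inactive X chromosome, had log2 ratios of -5.32, -5.95 and -6.65 in M3/F3, M4/F4 and M8/F8, and the Y-linked Ddx3y had 6.56, 6.29 and 6.58. The median of all genes lay within 0.02 of 0 in every comparison.

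The start regions of 6 of the 9 genes were found in RefSeq's promoter table (build GRCm38.p6), as windows of 300 bases that run from 250 before the transcript start to 50 after it. The windows of Otc, Ass1 and Glud1 are printed because these genes showed 3 different patterns, namely a rise with age in both sexes, a lower level in males from 4 wk and a fall in males between 4 and 8 wk. Capitals mark matches to the Sp1 motif GGGCGG on either strand.
Otc, chrX:10252055-10252354, plus strand: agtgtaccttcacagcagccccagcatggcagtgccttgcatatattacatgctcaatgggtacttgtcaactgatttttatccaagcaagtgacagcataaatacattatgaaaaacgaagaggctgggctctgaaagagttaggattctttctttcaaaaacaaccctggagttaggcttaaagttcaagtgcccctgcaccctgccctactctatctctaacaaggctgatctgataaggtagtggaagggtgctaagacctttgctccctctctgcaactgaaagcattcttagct
Ass1, chr2:31470020-31470319, plus strand: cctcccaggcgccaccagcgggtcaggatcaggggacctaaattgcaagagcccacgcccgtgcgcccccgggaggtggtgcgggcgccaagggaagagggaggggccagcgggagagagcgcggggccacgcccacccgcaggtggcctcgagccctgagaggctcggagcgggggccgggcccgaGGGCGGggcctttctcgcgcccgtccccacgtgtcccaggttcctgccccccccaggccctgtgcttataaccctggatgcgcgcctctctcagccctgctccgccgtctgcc
Glud1, chr14:34310477-34310776, plus strand: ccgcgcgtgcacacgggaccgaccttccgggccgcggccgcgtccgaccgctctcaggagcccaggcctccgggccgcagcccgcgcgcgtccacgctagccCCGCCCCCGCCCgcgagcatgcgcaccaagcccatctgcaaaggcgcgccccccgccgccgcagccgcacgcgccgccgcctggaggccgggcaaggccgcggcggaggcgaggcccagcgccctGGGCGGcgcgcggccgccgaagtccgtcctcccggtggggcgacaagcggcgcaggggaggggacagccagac
The Otc window was 44.3% G or C and held 1 CpG. That of Ass1 was 74% G or C with 27 CpG, and that of Glud1 was 81% with 51. Over all 32851 windows of the table the medians were 52.7% and 7 CpG. Both strands were searched for the letters of 7 motifs, which were STAT5 TTCNNNGAA (in 8.3% of all windows), C/EBP TTGCGCAA (0.183%), HNF4 CAAAGTCCA (0.475%), CREB TGACGTCA (1.79%), NF-Y CCAAT (37.4%), Sp1 GGGCGG (35.7%) and the TATA box, TATAAA (13.6%). Ass1 held 1 Sp1 match and Glud1 held 3, of which the first pair lay side by side, while Otc held none of the 7 motifs. STAT5 is the growth hormone-responsive factor linked to sex differences in liver, and none of the 3 windows held its letters.

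Male over female ratios of the urea cycle genes lay between -0.17 (Otc) and 0.11 (Ass1) on the log2 scale at 3 wk, and several of the genes were lower in males at 4 and 8 wk. At an adjusted p below 0.05 (limma, Benjamini-Hochberg adjustment over all probes and comparisons), 1 of 9 genes was lower in males at 3 wk, 4 were at 4 wk and 5 by 8 wk, and none was higher. Of all genes tested at 3 wk, 1.63% were lower in males and 1.24% higher. The shares were 4.46% and 3.45% at 4 wk, and 11.6% and 10.3% at 8 wk. For the 9 members the median log2 ratio went from 0.04 at 3 wk through -0.19 at 4 wk to -0.39 at 8 wk. All 9 ratios were below 0 in M4/F4 and 8 of 9 in M8/F8. The differences were small, and 1 gene also passed a 1.5-fold threshold, Gls2 in M8/F8, where 3.75% of all genes passed both in that direction.

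**Figure D1:**
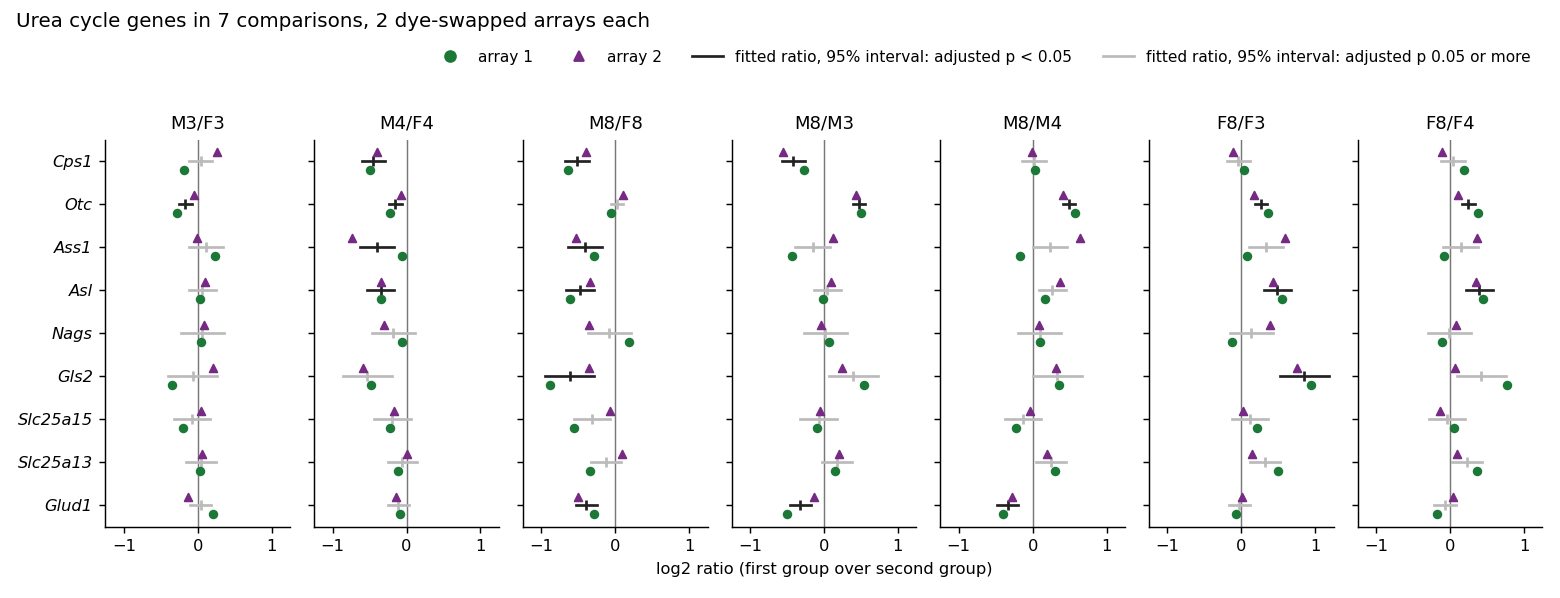
Log2 ratios of the 9 genes in the 7 comparisons, with the first group named over the second. Circles and triangles are the 2 dye-swapped arrays, and the bar is the fitted ratio with its 95% interval, black where the adjusted p was below 0.05. The black bars all lie left of 0 for M4/F4 and M8/F8, and right of 0 for the 2 female age comparisons.

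Cps1, which makes carbamoyl phosphate and commits ammonia to the cycle, was lower in males at 4 and 8 wk. In M3/F3 its log2 ratio was -0.18 on one array and 0.26 on the other, so the arrays fell on both sides of 0. In M4/F4 they were -0.49 and -0.40, a ratio of 0.733 (SE of log2 0.07, adjusted p = 0.00611). In M8/F8 they were -0.64 and -0.39, a ratio of 0.699 (adjusted p = 0.00351). Both male pools lay below both female pools at 4 and 8 wk.

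Otc, which joins carbamoyl phosphate to ornithine, passed at the younger ages and not at 8 wk. Its male over female log2 ratio at 8 wk minus that at 3 wk was 0.19 and did not pass. Under 11 other settings the lowest adjusted p of that difference was 0.0998 (limma). Otc was slightly lower in males in M3/F3, with -0.28 and -0.05 (ratio 0.891, SE of log2 0.04, adjusted p = 0.0232), and in M4/F4, with -0.22 and -0.08 (ratio 0.9, adjusted p = 0.0334). In M8/F8 the arrays gave -0.06 and 0.10, on both sides of 0 (fitted log2 ratio 0.02). It was the 1 member that passed in M3/F3. A second Otc probe, printed in 10 spots, gave -0.03 in M3/F3 and -0.13 in M4/F4 and passed in neither. The first probe passed in M3/F3 under 4 and in M4/F4 under 1 of 10 other settings tried, with an adjusted p of up to 0.340 and 0.403.

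Ass1 and Asl, which act in sequence on citrulline and argininosuccinate, were both lower in males from 4 wk. Ass1 had -0.06 and -0.73 in M4/F4, arrays that share a direction but differ widely (ratio 0.759, SE of log2 0.10, adjusted p = 0.0393). In M8/F8 it had -0.29 and -0.54 (ratio 0.752, adjusted p = 0.0348). Its second probe gave log2 ratios of -0.46 (adjusted p = 0.0175) and -0.54 (adjusted p = 0.00959). The fitted dye effect of Ass1 was 0.25 on the log2 scale. Asl had -0.35 on both arrays in M4/F4 (ratio 0.784, SE of log2 0.08, adjusted p = 0.0264) and -0.62 and -0.34 in M8/F8 (ratio 0.719, adjusted p = 0.00828). At 3 wk the Asl arrays gave 0.03 and 0.09, close to equal levels.

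Of these 4 enzymes of the cycle, 4 thus passed as lower in males in M4/F4 and 3 in M8/F8, with medians of -0.37 and -0.44, and the Otc call in M4/F4 was lost under 9 of the 10 settings.

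Nags and the carriers showed no sex difference that passed. Nags, which makes the activator of Cps1, had 0.19 and -0.35 in M8/F8, on both sides of 0. Slc25a15, which exchanges ornithine and citrulline across the mitochondrial membrane, had -0.56 and -0.07 (adjusted p = 0.102). Slc25a13, or citrin, which exports aspartate, had -0.34 and 0.09. The 3 genes had fitted log2 ratios of -0.08, -0.31 and -0.12 in M8/F8.

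The enzymes that release ammonia from glutamine and glutamate were lower in males at 8 wk. Gls2, the liver glutaminase, had -0.34 and 0.21 in M3/F3, -0.47 and -0.59 in M4/F4 (adjusted p = 0.0503) and -0.89 and -0.35 in M8/F8 (ratio 0.652, SE of log2 0.14, adjusted p = 0.0294). The M8/F8 call of Gls2 ended when either array was left out (adjusted p = 0.221 and 0.0799). Glud1, which splits glutamate into ammonia and a keto acid, had 0.21 and -0.13 in M3/F3 and -0.08 and -0.14 in M4/F4. In M8/F8 it had -0.28 and -0.51 (ratio 0.762, SE of log2 0.06, adjusted p = 0.00677). A second Glud1 probe gave -0.38 there (adjusted p = 0.0421).

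Calls in the sex comparisons depended on single arrays. In M4/F4, 2 members passed without the first array (Cps1 and Gls2) and none without the second. In M8/F8, Cps1 and Glud1 passed without the first array, and Cps1, Ass1, Asl and Slc25a15 without the second. In M3/F3 none passed with either array left out. Cps1 was the 1 member that passed in M8/F8 with either array left out. With no dye term in the model, 1 member passed in M4/F4 and 2 in M8/F8.

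The arrays can also be read as a level in each group, relative to the mean of the 6 groups, where pools of the same replicate number are taken as the same RNA on every array. At 4 wk both male pools lay below both female pools for all 9 genes. Males lay lower without overlap for 6 of 9 at 8 wk (Cps1, Ass1, Asl, Gls2, Slc25a15 and Glud1) and for 2 of 9 at 3 wk (Otc and Slc25a15), and higher for 1 of 9 at 8 wk (Otc) and 1 of 9 at 3 wk (Asl). Pools that did not overlap, with males lower, were found for 24.9%, 28.1% and 35.5% of all genes at 3, 4 and 8 wk, and with males higher for 22.7% at 3 wk and 35.9% at 8 wk. These shares show that with 2 pools a group a lack of overlap is common. Gls2 had the widest range of the 6 group means, at 1.96-fold, followed by Asl at 1.66-fold and Ass1 at 1.51-fold, and Nags had the narrowest, at 1.13-fold.

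**Figure D2:**
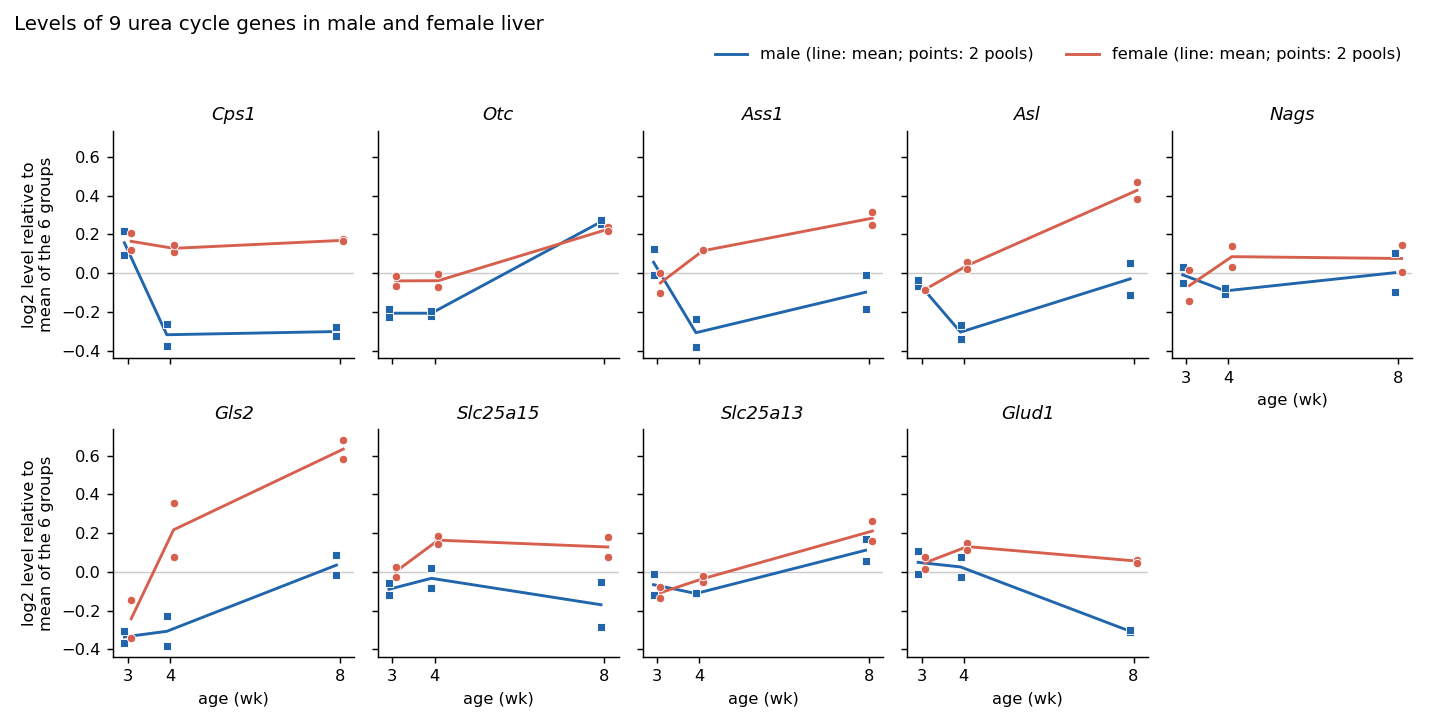
Log2 level of each gene in males (blue squares) and females (red circles) at 3, 4 and 8 wk, relative to the mean of the 6 groups. Points are the 2 pools and lines join the means. Cps1 stands near 0.16 in both sexes at 3 wk and at -0.32 in males and 0.13 in females at 4 wk, whereas Otc ends at 0.27 in males and 0.23 in females at 8 wk.

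Each gene had its own order of groups. How often neighbours in such an order separate over all genes was not computed, so the steps describe these pools alone. For Cps1 the order was F8, F3, M3, F4, M8 and M4, and the 1 step between neighbours without overlap was from F4 (0.13) to M8 (-0.30). No other neighbours were separated, M4 (-0.32) and M8 among them. Otc ran M8, F8, F4, F3, M4 and M3, with steps from M8 (0.27) to F8 (0.23), F8 to F4 (-0.04) and F3 (-0.04) to M4 (-0.21). Ass1 ran F8, F4, M3, F3, M8 and M4, with steps from F8 (0.28) to F4 (0.12) and from M8 (-0.10) to M4 (-0.31). Females at 8 wk and males at 4 wk were thus the ends of the Ass1 order.

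The same ends were seen for Asl, which ran F8, F4, M8, M3, F3 and M4, with steps from F8 (0.43) to F4 (0.04), M3 (-0.05) to F3 (-0.08) and F3 to M4 (-0.30). Gls2 ran F8, F4, M8, F3, M4 and M3, with steps from F8 (0.63) to F4 (0.22) and from M8 (0.03) to F3 (-0.24). Glud1 ran F4, F8, M3, F3, M4 and M8, with steps from F4 (0.13) to F8 (0.06) and from M4 (0.03) to M8 (-0.31), which stood apart below all other groups. For Slc25a15 and Slc25a13 only 1 step between neighbours had no overlap, and for Nags none had.

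With age the genes moved in different directions, and males and females are given side by side, since comparisons to 8 wk share the 8 wk pools with M8/F8 and with each other. In M8/M3, 1 of 9 genes rose (Otc) and 2 fell (Cps1 and Glud1), where 21.7% of all genes rose and 20.3% fell. In F8/F3, 3 rose (Otc, Asl and Gls2) and none fell, where 17% of all genes rose and 16.7% fell. In M8/M4, 1 rose (Otc) and 1 fell (Glud1), where the share was 14.8% in each direction. In F8/F4, 2 rose (Otc and Asl) and none fell, where 10.6% rose and 10.7% fell. For males the median of the 9 genes was 0.02 from 3 wk and 0.24 from 4 wk, and for females it was 0.27 and 0.14.

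Otc rose with age in both sexes and passed in all 4 age comparisons. In M8/M3 its arrays gave 0.51 and 0.44 (ratio 1.39, adjusted p = 0.000485), and in M8/M4 0.57 and 0.41 (ratio 1.4, adjusted p = 0.000429). For females they gave 0.36 and 0.18 in F8/F3 (ratio 1.2, adjusted p = 0.00389), followed by 0.38 and 0.11 in F8/F4 (ratio 1.19, adjusted p = 0.00507). All 8 arrays lay above 0. Of 10 other settings the female calls held under 8 in F8/F3 and 6 in F8/F4, and with no dye term both were lost (adjusted p = 0.114 and 0.14). The second Otc probe gave smaller log2 ratios of 0.22, 0.35, 0.15 and 0.19 and passed in M8/M4 alone (adjusted p = 0.0138).

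Cps1 and Glud1 fell with age in males. Cps1 had -0.27 and -0.56 in M8/M3 (ratio 0.751, adjusted p = 0.00837) but 0.04 and -0.00 in M8/M4, so its levels at 4 and 8 wk were close. The M8/M3 call of Cps1 was lost without the second array (adjusted p = 0.0835) and with no dye term (adjusted p = 0.0798). In females its arrays fell on both sides of 0, at 0.03 and -0.12 for F8/F3 and at 0.19 and -0.10 for F8/F4. Glud1 fell in M8/M3, with -0.50 and -0.14 (ratio 0.801, adjusted p = 0.0149), and in M8/M4, with -0.40 and -0.28 (ratio 0.791, adjusted p = 0.0121). The M8/M3 call of Glud1 was lost without the first array (adjusted p = 0.154) and the M8/M4 call without either (adjusted p = 0.0535 and 0.118), and with no dye term both were lost (adjusted p = 0.125 and 0.106). Its second probe gave -0.42 (adjusted p = 0.0288) and -0.28 (adjusted p = 0.118), and in females the fitted log2 ratios of Glud1 were -0.03 and -0.07.

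Asl rose with age in both female comparisons and Gls2 in F8/F3. Asl had 0.55 and 0.42 in F8/F3 (ratio 1.4, adjusted p = 0.00763) and 0.44 and 0.35 in F8/F4 (ratio 1.31, adjusted p = 0.017), against -0.01 and 0.10 in M8/M3. In M8/M4 Asl was above 0 on both arrays, at 0.16 and 0.37 (ratio 1.2, adjusted p = 0.0668), and passed under 3 of 10 other settings. Gls2 had 0.94 and 0.76 in F8/F3 (ratio 1.8, adjusted p = 0.00877), the largest fitted ratio among the members, past 1.5-fold in a comparison where 5.09% of all genes rose past it. Leaving out either F8/F3 array ended the call of Gls2 (adjusted p = 0.0524 and 0.0871). Asl lost its F8/F3 call without the first array (adjusted p = 0.0796) and its F8/F4 call without either (adjusted p = 0.138 and 0.085). In F8/F4 Gls2 had 0.78 and 0.07 and did not pass (adjusted p = 0.104). In males it had 0.55 and 0.25 in M8/M3 (adjusted p = 0.124) and 0.36 and 0.32 in M8/M4 (adjusted p = 0.184), above 0 on all 4 arrays.

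Ass1, Nags, Slc25a15 and Slc25a13 passed in no age comparison. Ass1 had 0.07 and 0.59 in F8/F3 (adjusted p = 0.0711) and -0.43 and 0.13 in M8/M3. Slc25a13 had 0.49 and 0.14 in F8/F3 (adjusted p = 0.0514), and passed there under 4 of the other settings tried. The fitted log2 ratios of Nags and Slc25a15 lay between -0.13 and 0.13 in the 4 age comparisons.

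**Figure D3:**
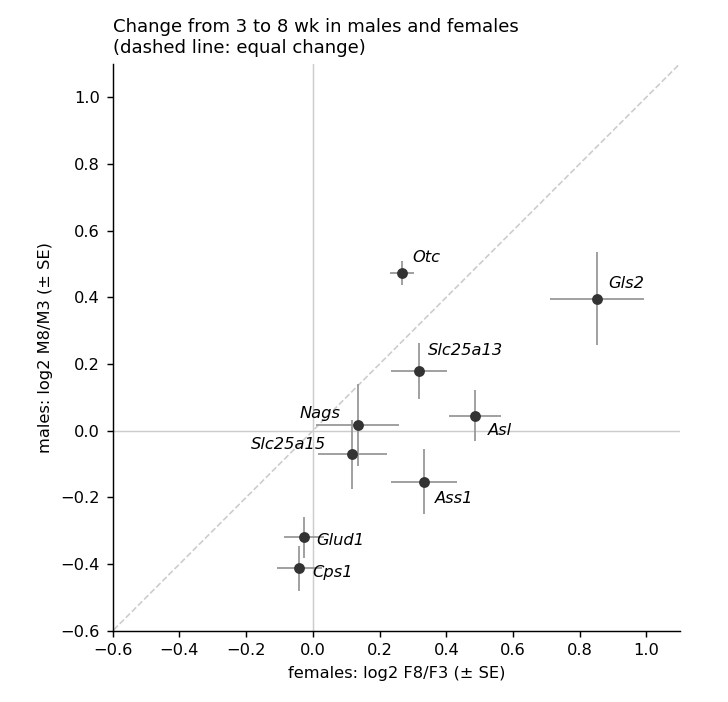
Log2 change from 3 to 8 wk in females (horizontal, F8/F3) and in males (vertical, M8/M3) for the 9 genes, each with its SE. The dashed line marks equal change, above which lies Otc (0.27 in females, 0.47 in males) and below which lie the other 8, with Gls2 farthest right at 0.85.

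Whether the change with age differed between the sexes was tested directly, and no member passed. For 3 to 8 wk (M8/M3 minus F8/F3) the differences ranged from -0.49 (Ass1) to 0.21 (Otc) with a median of -0.29, and 8 of 9 were below 0. None reached an adjusted p below 0.05 (limma), 5 had an unadjusted p below 0.05, and over all genes 6.52% passed and 26.3% had an unadjusted p below 0.05. Cps1 had a difference of -0.37 (95% interval -0.60 to -0.15, adjusted p = 0.0895) and Asl one of -0.44 (-0.70 to -0.18, adjusted p = 0.0822). For 4 to 8 wk (M8/M4 minus F8/F4) the median was -0.03, none passed, 2 had an unadjusted p below 0.05, and over all genes the shares were 2.09% and 17.6%.

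The same question was read a second way, chosen after seeing the data, as the male over female ratio at 8 wk minus that at 3 wk. Here 3 members passed, with a lower male over female ratio at 8 than at 3 wk, where 3.95% of all genes passed in that direction and 3.65% in the other. Cps1 differed by -0.56 (SE 0.10, adjusted p = 0.0257), Asl by -0.54 (SE 0.11, adjusted p = 0.0458) and Glud1 by -0.43 (SE 0.09, adjusted p = 0.0421). The second Glud1 probe did not pass (-0.37, adjusted p = 0.208), the Glud1 call was lost with the replicate number as a block (adjusted p = 0.0612), and the second Ass1 probe passed where the first did not (-0.63, adjusted p = 0.0464). Each difference rests on 4 arrays, and none of the 3 passed without the first M8/F8 array or without the second M3/F3 array. Without the second M8/F8 array Cps1 (adjusted p = 0.0908) and Glud1 (adjusted p = 0.149) did not pass, and without the first M3/F3 array Asl (adjusted p = 0.151) and Glud1 (adjusted p = 0.182) did not. Glud1 passed under 3 of 11 other settings, Cps1 under 6 and Asl under 8. Both readings estimate the same difference when pools are shared, and over the 9 genes they differed by a median of 0.0409 and by at most 0.184, for Cps1. For 4 wk against 3 wk (M4/F4 minus M3/F3) no member passed, 3 had an unadjusted p below 0.05, and over all genes the shares were 0.00744% and 10.2%.

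From 3 to 4 wk, for which no arrays were hybridized, changes were computed through the shared 8 wk pools, and no member passed in either sex. Cps1 in males had a log2 change of -0.43 (95% interval -0.65 to -0.20, adjusted p = 0.121). Gls2 in females had one of 0.43. Unadjusted p below 0.05 was reached by 2 members in males and by none in females, beside 17.3% and 14.3% of all genes, while 0.591% and 0.153% of all genes passed.

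Other genes that feed or drain the cycle were read from 4 lists with 57 genes on the array, beside 11.6% of all genes lower and 10.3% higher in M8/F8. Of the ammonia and glutamine handling genes, 3 of the 10 bright enough for the test were lower in M8/F8 and none was higher (median -0.27), and in F8/F3 6 of 11 rose and 1 was lower, where 17% of all genes rose and 16.7% fell. The 1 lower, the urea transporter Slc14a1, was bright enough for the test in M8/M3 and F8/F3 alone of the 7 comparisons, and its values are not given. Slc1a2, a glutamate transporter, was lower in males in M8/F8, with arrays at -0.70 and -0.82 (adjusted p = 0.011), and rose by 0.90 in M8/M3 and 1.19 in F8/F3. The water and ammonia channel Aqp8 was the 1 gene of 11 to pass the interaction for 3 to 8 wk, at -0.77 (adjusted p = 0.0407), where 6.52% of all genes passed. The amino acid transporter Slc38a4 rose by 1.24 in males and 1.15 in females from 3 to 8 wk.

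Of the genes of ornithine and arginine use, 3 of 11 were lower in M8/F8 and none was higher (median -0.18), where 11.6% of all genes were lower and 10.3% higher. Oat, ornithine aminotransferase, which diverts ornithine from the cycle, had -1.33 and -1.28 in M8/F8 (ratio 0.404, adjusted p = 0.000143) and a ratio of 2.9 in F8/F3 (adjusted p = 9.97e-05). Its difference between the sexes for 3 to 8 wk was -0.88 (adjusted p = 0.00609), and Agmat, agmatinase, was the other gene of the list to pass there (-0.43, adjusted p = 0.0146). That interaction was passed by 6.52% of all genes. Oat is an enzyme of cells around the central vein, and it stands on that marker list, as do Slc1a2, Glul and Rhbg of the ammonia and glutamine list. The arginine transporter Slc7a2 rose by 1.86 in M8/M3 and 1.30 in F8/F3, while its relative Slc7a1 fell by 0.88 in M8/M3 and by 0.89 in F8/F3.

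Of the genes of aspartate, malate and bicarbonate supply, 4 of 14 were lower and 1 was higher in M8/F8 (median -0.11), beside 11.6% and 10.3% of all genes. Got1, the cytosolic aspartate aminotransferase, had -1.86 and -1.46 (ratio 0.316, adjusted p = 0.000502), fell by 0.63 in M8/M3 and rose by 0.65 in F8/F3. Asns, asparagine synthetase, which consumes aspartate, went the other way, with 1.24 and 1.77 in M8/F8 (ratio 2.84, adjusted p = 0.00164) and -2.16 and -2.73 in F8/F3. The interaction for 3 to 8 wk was passed by 4 of the 14, where 6.52% of all genes passed. These were Got1 at -1.29 (adjusted p = 0.014), Car2 at -0.64 (adjusted p = 0.0287), Car5a at -0.48 (adjusted p = 0.0399) and Asns at 1.79 (adjusted p = 0.0105). Carbonic anhydrase Car2 had -0.59 and -0.83 in M8/F8 (adjusted p = 0.00208), and it fell by 1.80 in males and by 1.15 in females from 3 to 8 wk. The asparaginase Aspg rose by 0.75 in males and by 0.86 in females over that time.

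Of the 17 regulators of urea cycle genes, 9 rose from 3 to 8 wk in males and 9 in females, and none fell (medians 0.35 and 0.31). Over all genes 21.7% rose and 20.3% fell in males, and 17% rose and 16.7% fell in females. None of the 17 passed in M8/F8 in limma (median -0.03), where 4 had an unadjusted p below 0.05, as did 40% of all genes. At younger ages 2 were lower in males in M3/F3 and 3 in M4/F4, where 1.63% and 4.46% of all genes were lower. Named after their values were seen, these were Cebpb (-0.60) and Klf15 (-0.52) at 3 wk, and Ppargc1a (-1.10), Foxo1 (-0.38) and Klf15 (-0.26) at 4 wk. Cebpb, a C/EBP factor that drives urea cycle transcription, rose by 1.12 in M8/M3 (adjusted p = 0.00455), and Klf15, which controls amino acid breakdown, by 0.77 (adjusted p = 0.000435). Ppargc1a, a coactivator of the fasting response, rose by 0.82 in F8/F3 (adjusted p = 0.043). None of the 17 passed the interaction for 3 to 8 wk, and 2 had an unadjusted p below 0.05, beside 26.3% of all genes.

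**Figure D4:**
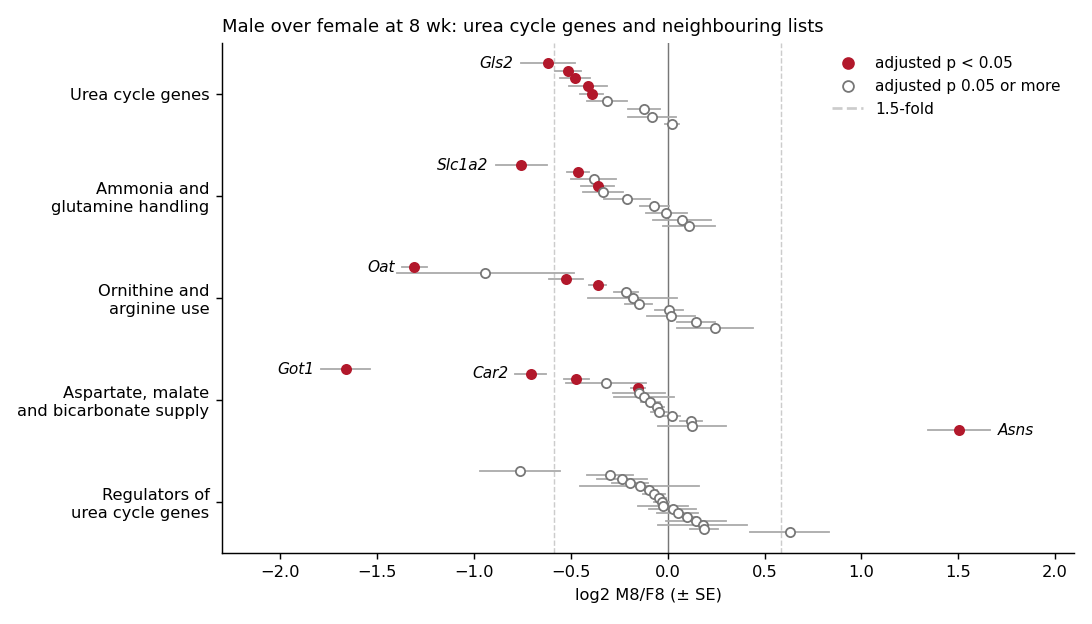
Log2 M8/F8 with its SE for the 9 urea cycle genes and the 4 neighbouring lists, 1 point per gene. Filled points have an adjusted p below 0.05 and dashed lines mark 1.5-fold. Most urea cycle genes lie between 0 and the left dashed line, where Oat, Got1, Car2 and Slc1a2 lie beyond it and Asns lies far to the right.

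Markers of liver cells and zones moved with some of these comparisons. Over all genes 4.46% were lower and 3.45% higher in M4/F4, and 11.6% were lower and 10.3% higher in M8/F8. Of 11 markers of hepatocytes around the central vein, which should hold less of Cps1, Otc, Ass1 and Asl, 7 were lower in males in M4/F4 (median -0.58) and 4 in M8/F8 (median -0.38). Their summed signal was 122067 to 184792 in M4 and 180774 to 243731 in F4. Of 11 markers of hepatocytes around the portal vein none passed in M4/F4, and 2 were higher and 3 lower in M8/F8 (median -0.36). Of 7 Kupffer cell markers all 7 were lower in males in M8/F8 (median -0.59), with a summed signal of 15880.4 to 23430.9 in M8 and 25619.8 to 38771.9 in F8.

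General hepatocyte genes also differed, with 3 of 6 lower in males in M8/F8 (Alb -0.57, Serpinc1 -0.38 and Ahsg -0.79), 2 of 6 above 0 without passing (Apoa1 0.40 and Ttr 0.01), and 1 of 6 lower in M4/F4. With age 2 of the 6 fell in M8/M3 and in M8/M4 (Ahsg with ratios of 0.422 and 0.475, Alb with 0.61 and 0.626), and 1 of the 6, Ahsg, in F8/F3 and F8/F4 (ratios 0.614 and 0.612). The 7 markers of dividing cells had a summed signal of 12110 to 18764 in M3 and of 657 to 1303 in M8. Of these Aurkb was well above background in no channel of M8 or F8 and 4 of 7 were so in every channel of M8, so no median change is given. From 3 to 8 wk 7 of 11 portal markers rose and 1 fell in each sex (medians 0.44 in males and 0.73 in females), and 4 of 11 central markers rose in males and 6 in females. Every marker on the hepatocyte, zone and Kupffer lists was well above background in all channels of each group. All 7 Kupffer cell markers also fell in M8/M4 (median -0.53), 3 fell in M8/M3, 1 in F8/F3 and 2 in F8/F4, and 3 of 6 stellate and mesenchymal markers fell in each of the 4 age comparisons. The part of cell makeup in the differences of the urea cycle genes was not tested.

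The genes most like the members with the widest range were sought by Pearson correlation over the 12 levels (6 groups, 2 pools each) among 12301 genes bright in every channel, as a description of these pools. For Gls2 they were Wipf3 (0.985), Marchf6 (0.971) and Oat (0.970). For Asl they were Il18 (0.974), Klb (0.968) and Dleu2 (0.960). The levels behind each correlation come from the same arrays and pools.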

How the data were processed

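Liver RNA of 6 groups was amplified, labelled with a red or a green dye and hybridized to 14 Agilent 4x44k mouse arrays on 4 slides scanned on 2 days, with each comparison on 1 day and its arrays on separate slides. The deposited scanner output gives intensity medians per spot and the log10 ratio of red over green, which the authors obtained with Feature Extraction 10.7.1.1 by subtracting background and normalizing dyes linearly and by LOWESS. The deposited log10 table of the series equalled these ratios (largest difference 0). The deposited p-values of the ratios were not used. Ratios were turned to log2 by the dyes that the labels give, and spots of a probe were averaged. In R 4.3.3, limma 3.58.1 fitted 7 comparisons and a dye term to all probes (6 residual degrees of freedom), with Benjamini-Hochberg adjustment over all probes and comparisons, or over all probes within a difference of comparisons. A gene passed at an adjusted p below 0.05 where at least 1 group was well above background on both arrays, and was called past 1.5-fold (below 0.667). The number of arrays limits the precision, and no sequencing depth applies. The methods' error-weighted test was approximated. Members, lists and tests were chosen with earlier results of these data known. A further member of the pathway and 1 list of markers are not reported here. Genes of the neighbouring lists were named where they were called in M8/F8, passed an interaction, or were among the 2 largest called changes of their list in M8/M3 or F8/F3. The regulators lower in M3/F3 or M4/F4 were named after their values were seen. Amd1 and the hepatocyte marker Tf had no probe. The model was tested on simulated data. Alternatives changed the background correction, dye term, error model, brightness condition, probe choice, pool covariance, slide, replicate block, ratio threshold and arrays included. Figures were drawn with matplotlib 3.10.9.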

Additional observations from a re-analysis of the deposited data

Results flagged for a closer look

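The male over female difference changed from 3 to 8 wk for 3 members, in a reading chosen after seeing the data, M8/F8 minus M3/F3 on the log2 scale. The difference was -0.555 for Cps1, -0.537 for Asl and -0.431 for Glud1, and each was tested as a difference of both comparisons in limma (adjusted p = 0.0257, 0.0458 and 0.0421). With the replicate number as a block Glud1 did not pass (adjusted p = 0.0612), and of the 4 ways to leave out 1 array Glud1 lost its call under 4, Cps1 under 3 and Asl under 3. With normexp and loess Cps1 did not pass either (adjusted p = 0.059). The planned reading through the age arrays, M8/M3 minus F8/F3, gave -0.37, -0.44 and -0.29, with an adjusted p of 0.0895, 0.0822 and 0.125. M8/M3 was scanned on the first day and F8/F3 on the second, while both sex comparisons were scanned on the first, and the part of the scan day was not tested.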

How the results depend on the processing

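No value of a single member reversed in a test it passed. The counts of members past an adjusted p below 0.05 that moved by over 1.5 times are these, with some smaller changes. With probes bright in some comparison alone in the fit, chosen after seeing the data, 5 passed in F8/F3. With error-weighted averages and an unadjusted p of 0.0001, the count was 0 in the 3 sex comparisons, in both male age comparisons and in F8/F4, and 1 in F8/F3, and 0 were called past 1.5-fold in M8/F8. With the mean of all probes of a gene, 3 passed in M4/F4, 2 in M8/F8 minus M3/F3 and 0 in M3/F3. With no dye term, 0 passed in M3/F3, 1 in M4/F4, 2 in M8/F8 (0 called), and 1 each in M8/M3, M8/M4, F8/F4 and M8/F8 minus M3/F3. With no threshold on the ratio the counts called rose to 1, 4 and 5 in the sex comparisons at 3, 4 and 8 wk, to 3 and 2 in males from 3 and 4 wk, to 3 and 2 in females from 3 and 4 wk, and to 3 in M8/F8 minus M3/F3. With normexp and loess, 5 passed in F8/F3 and 2 passed the interaction for 3 to 8 wk, Cps1 (-0.53, adjusted p = 0.047) and Glud1 (-0.47, adjusted p = 0.0138). With shared pools in the covariance, 0 passed in M3/F3, 1 in F8/F4 and 1 in M4/M3 (Cps1, adjusted p = 0.0422). Under that setting 4 calls were lost, Otc in M3/F3, M4/F4 and F8/F4 and Glud1 in M8/F8 minus M3/F3. Another 4 were gained, Cps1 in M4/M3, Asl in M8/M4, Gls2 in M4/F4 and Slc25a13 in F8/F3. Leaving out each array in turn, the counts ranged from 0 to 0 in M3/F3, 0 to 2 in M4/F4, 2 to 4 in M8/F8, 2 to 2 in M8/M3 and 1 to 2 in M8/M4 among males, 1 to 2 in F8/F3 and 0 to 1 in F8/F4 among females, and 0 to 1 in M8/F8 minus M3/F3. Those called past 1.5-fold ranged from 0 to 1 in M4/F4, M8/F8 and M8/F8 minus M3/F3 and from 0 to 0 in F8/F3. The cause of these changes was not tested. With the replicate block, 2 calls were lost, Otc in M4/F4 (adjusted p = 0.0509) and Glud1 in M8/F8 minus M3/F3 (adjusted p = 0.0612), and no other. With 2 pairs the numbers cannot show whether the pools are paired. The difference between the 2 replicates of the interaction was also read both ways, after the dye term was removed. Over 20449 probes both readings of that replicate difference correlated at 0.913 for 3 to 8 wk and 0.904 for 4 to 8 wk.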
